A study of Mus musculus with 6 samples.

Results

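The inflammatory cytokines and inducible enzymes described here are 6 transcripts of an array table of 81690: Tnf (ENSMUST00000025263_at), Il1b (ENSMUST00000028881_at), Il1a (ENSMUST00000028882_at), Il6 (ENSMUST00000026845_at), Ptgs2 (ENSMUST00000035065_at) and Nos2 (ENSMUST00000018610_at). They were chosen by identifier, 1 Ensembl transcript for each gene, and all 6 were found in the table. Resident macrophages were washed from the peritoneal cavity of female C57BL/6J mice aged 8 to 12 weeks. In each of 3 experiments the cells of several mice were pooled and plated, and adherent cells received human LDL oxidized with copper sulfate (oxLDL, 25 µg/mL) or vehicle (labelled unstim) for 24 h. RNA of each well was hybridized to an Affymetrix Mouse Exon 1.0 ST array, which gave 3 vehicle and 3 oxLDL arrays with no genetic change in either group. The cells were purified by adherence alone, and the markers of macrophages and of other peritoneal cells were not examined here, because apart from the 6 members the identifiers were not paired with gene names. The values are log2 transcript values, and the array medians ran from 8.64 to 8.80. A mixture of cells was measured, so a change in the share of producing cells and a change in RNA per cell cannot be told apart.

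Tissue macrophages answer microbial products and injury by switching on a set of genes through NF-κB and AP-1. Their products include secreted cytokines and the enzymes that make prostaglandins and nitric oxide. Interleukin-1α and interleukin-1β are separate gene products that bind the same receptor. Interleukin-1α is active as its precursor and acts as an alarm signal when cells are damaged, while interleukin-1β is made as an inactive precursor that caspase-1 cleaves. TNF and interleukin-6 act through receptors of their own. Ptgs2 encodes cyclooxygenase-2, which starts prostaglandin synthesis, and Nos2 encodes the inducible nitric oxide synthase. Macrophages that take up oxLDL become foam cells, and inflammatory cytokines are part of the chronic inflammation of the atherosclerotic plaque.

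After 24 h with oxLDL the 6 transcripts moved in different directions. Il1b fell 8.84-fold and Il1a rose 2.36-fold, and these were the only members of the 6 to pass both thresholds, a q-value below 0.05 from limma and a 2-fold change. Il1b entered the tested set only through its vehicle values, and it passed both thresholds in the fit to all transcripts as well (q = 2.24e-05). Ptgs2 fell by less, 1.76-fold, and Tnf was 1.29-fold higher, with a q-value that did not hold under all settings. Il6 and Nos2 lay among the dimmer transcripts in both groups and were not called. Among the 40845 transcripts bright enough to be tested (a mean over the 6 arrays above 8.74, the median of all), 0.686% were called higher and 2.45% lower. That split depended on scaling, with 280 higher and 1001 lower as deposited, and 383 and 753 after quantile normalization of the deposited values, which moved the median difference of the tested transcripts from -0.10 to 0.02 on the log2 scale. Of the members, 3 (Tnf, Il1b and Il1a) passed the brightness filter. Il6, Ptgs2 and Nos2 did not, and their tests come from the same model fitted to all 81690 transcripts, of which 1.7% were called in either direction. The median difference between oxLDL and vehicle was -0.02 (log2) over the 6 members and 0.00 over all transcripts.

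**Figure D1:**
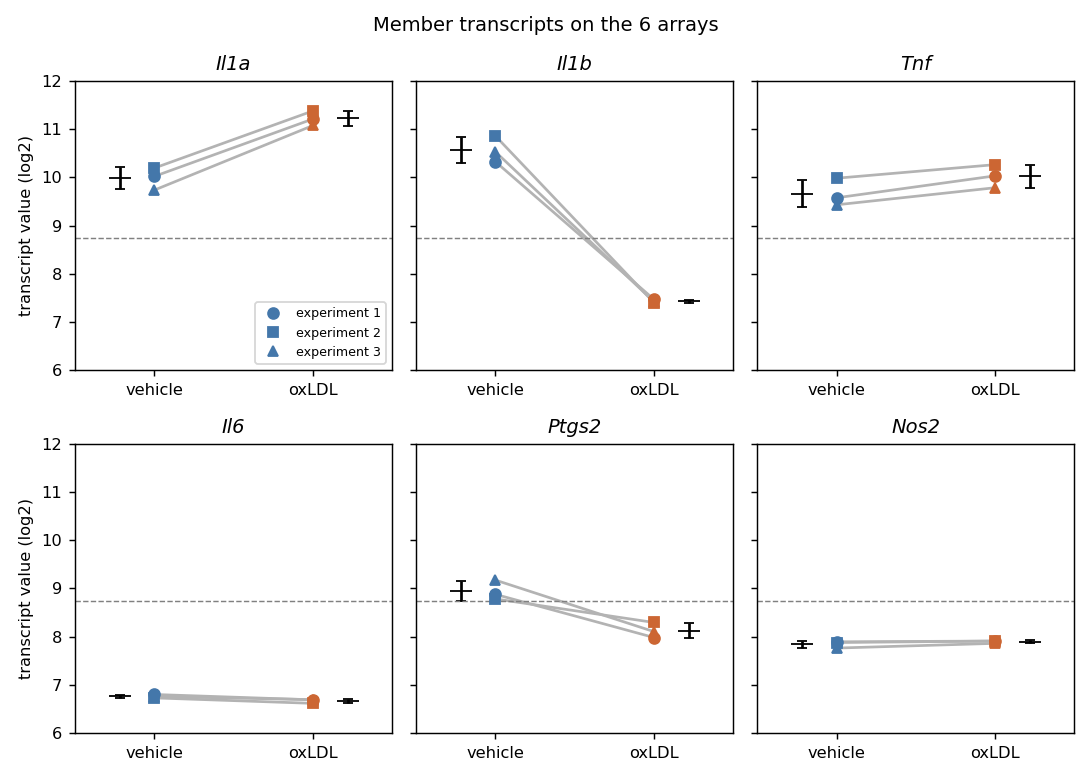
Values (log2) of the 6 transcripts on vehicle and oxLDL arrays, 1 panel per gene. Grey lines join the arrays of an experiment, black bars give the group mean and SD (n = 3), and the dashed line at 8.74 is the brightness filter. The Il1b values drop from above 10 to below 8 in every experiment, while the Il1a values rise.

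The Il1a and Il1b genes are neighbours on mouse chromosome 2, with no other protein-coding gene starting between them in the RefSeq table. The bases upstream of their start sites are shown because these adjacent genes of one family moved in opposite directions. The sequences are from RefSeq on GRCm38.p6, 5′ to 3′ in the sense of the gene, the 250 bases before the annotated start of transcription, at chr2:129309973-129310222 (minus strand) for Il1a and chr2:129371140-129371389 (minus strand) for Il1b. Capitals mark matches to the motifs named below.
Il1a: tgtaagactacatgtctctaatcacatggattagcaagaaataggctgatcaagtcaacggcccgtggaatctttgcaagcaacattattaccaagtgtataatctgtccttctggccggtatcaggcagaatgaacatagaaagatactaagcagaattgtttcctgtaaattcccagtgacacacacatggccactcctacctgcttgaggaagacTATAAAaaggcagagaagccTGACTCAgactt
Il1b: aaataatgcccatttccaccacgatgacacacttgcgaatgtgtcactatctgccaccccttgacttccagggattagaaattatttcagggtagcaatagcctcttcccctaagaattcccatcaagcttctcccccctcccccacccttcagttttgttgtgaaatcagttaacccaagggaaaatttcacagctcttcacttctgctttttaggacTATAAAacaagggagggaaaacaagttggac

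Both windows held a TATA box (TATAAA) on the gene's strand, 32 to 27 bases before the start in Il1a and 31 to 26 bases before it in Il1b. Il1a also held a match to the AP-1 motif (TGANTCA), 12 to 6 bases before the start, and the Il1b window held none. Of all 32851 upstream windows of this length, 12.4% had the TATA box and 6.75% the AP-1 motif on either strand. A match is a description of the letters, and positions depend on the start site that the annotation gives. Whether any match bears on the changes with oxLDL was not tested.

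Il1b, the gene of interleukin-1β, measured 10.33, 10.86 and 10.53 with vehicle in experiments 1, 2 and 3, and 7.47, 7.40 and 7.42 after oxLDL in the same order. The groups did not overlap, with a mean of 10.57 ± 0.27 (SD, n = 3) for vehicle and 7.43 ± 0.04 for oxLDL, whose arrays lay close together. On the vehicle arrays 84.3% to 91.1% of all transcripts were dimmer than Il1b, and on the oxLDL arrays 9.19% to 10.0% were. The difference was -3.14 on the log2 scale (standard error 0.13, q = 1.48e-07 from limma), an 8.84-fold lower value with a 95% interval of 7.25 to 10.8. In all, 16 tested transcripts, Il1b among them, fell as far. Within the experiments the difference was -2.86, -3.46 and -3.11. Il1b passed the filter through its vehicle values alone, since its oxLDL mean of 7.43 was below 8.74, and in the limma fit to all transcripts, which has no filter, its q-value was 2.24e-05. Whether the oxLDL values exceeded background was not assessed, so the fold change is that of the deposited values.

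Il1a, the gene of interleukin-1α, had values of 10.02, 10.19 and 9.74 with vehicle and 11.21, 11.38 and 11.08 with oxLDL. Every oxLDL array was above every vehicle array, with means of 11.22 ± 0.15 and 9.98 ± 0.23 (SD, n = 3). On the oxLDL arrays 94.5% to 95.5% of transcripts were dimmer, and on the vehicle arrays 71.7% to 82.2% were. The difference was 1.24 (log2, standard error 0.13, q = 4.61e-05 from limma), a 2.36-fold rise with a 95% interval of 1.93 to 2.88, which reaches below the 2-fold threshold. It was similar within the experiments, at 1.19, 1.19 and 1.34. In all, 140 tested transcripts, Il1a among them, rose as far.

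The difference between both genes was also read within each array. Il1b minus Il1a was 0.30, 0.66 and 0.79 (log2) on the vehicle arrays and -3.75, -3.98 and -3.66 on the oxLDL arrays. Its mean changed by -4.38, which restates the fall of Il1b and the rise of Il1a given above and is no separate evidence of either. It also rests on the oxLDL values of Il1b, for which background was not assessed. The exact permutation test over arrays gave a two-sided p of 0.10, the smallest that 3 arrays against 3 allow, and swaps within the same-numbered pairs (the replicate block) gave 0.25, the smallest for 3 pairs. The values compare the probes of each transcript with themselves across arrays and do not say which interleukin-1 RNA was more abundant.

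**Figure D2:**
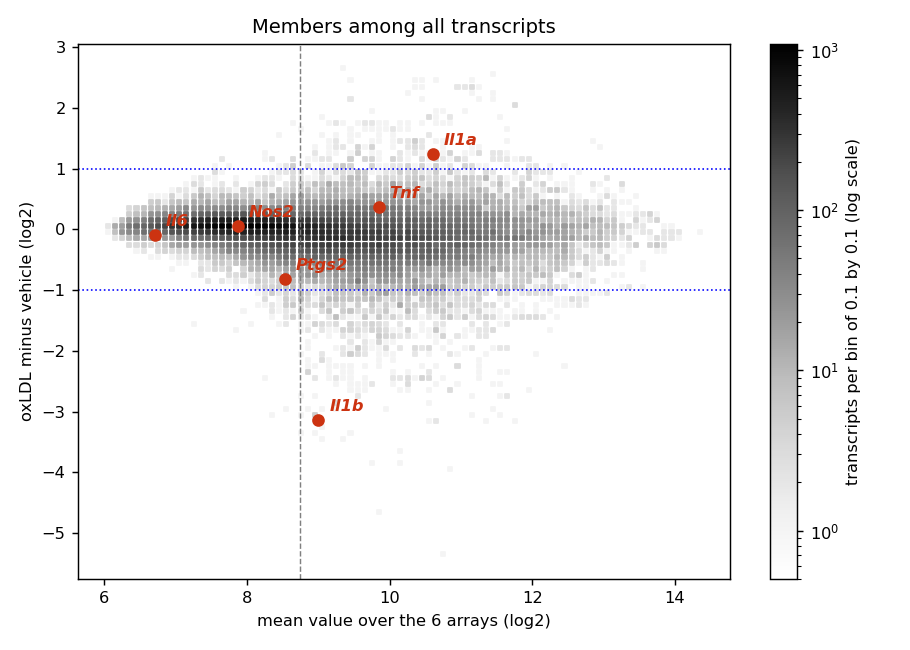
Difference between oxLDL and vehicle (log2) against the mean over the 6 arrays (log2) for all 81690 transcripts, as grey bins shaded by their number, with the 6 members in red. Dotted lines mark 2-fold changes and the dashed line the filter at 8.74. Il1b lies at -3.14, below nearly all transcripts, Il1a at 1.24, and Il6 and Nos2 close to 0 among the dim transcripts.

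Upstream of Tnf and Ptgs2, which moved less, the windows were as follows, at chr17:35202008-35202257 (minus strand) for Tnf and chr1:150099781-150100030 (plus strand) for Ptgs2, from RefSeq on GRCm38.p6 and again with matches in capitals. They are shown for comparison with the interleukin-1 pair.
Tnf: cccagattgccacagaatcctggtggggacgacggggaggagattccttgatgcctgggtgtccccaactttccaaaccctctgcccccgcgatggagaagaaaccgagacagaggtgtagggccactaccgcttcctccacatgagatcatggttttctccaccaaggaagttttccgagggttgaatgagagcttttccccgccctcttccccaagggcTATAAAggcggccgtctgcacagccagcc
Ptgs2: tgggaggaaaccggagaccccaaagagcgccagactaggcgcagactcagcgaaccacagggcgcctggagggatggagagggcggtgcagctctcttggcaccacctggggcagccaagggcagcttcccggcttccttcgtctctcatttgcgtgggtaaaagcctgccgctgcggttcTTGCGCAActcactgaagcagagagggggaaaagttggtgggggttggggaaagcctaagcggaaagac

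Tnf held a TATA box 29 to 24 bases before its start, and Ptgs2 held none in these letters. Ptgs2 had instead a match to the C/EBP motif (TTGCNNAA), which 9.56% of all windows held, 69 to 62 bases before the start. The GC content was 57.6% upstream of Tnf and 61.6% upstream of Ptgs2, against 42.4% for Il1a and 44.4% for Il1b, with a median of 52.4% over all windows.

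Tnf encodes tumour necrosis factor, a cytokine that activates NF-κB in the cells that receive it. Its values were 9.58, 9.98 and 9.43 with vehicle and 10.03, 10.27 and 9.79 with oxLDL. The means were 9.66 ± 0.29 with vehicle and 10.03 ± 0.24 with oxLDL (SD, n = 3). The groups overlapped, since vehicle array 2 was above oxLDL array 3, but within each experiment the oxLDL array was higher, by 0.46, 0.28 and 0.35. Of the tested transcripts, 20.3% were higher in 3 of 3 pairs. The difference was 0.36 (log2, standard error 0.16, q = 0.0433 from limma), a 1.29-fold higher value with a 95% interval of 1.01 to 1.64, short of 2-fold. At q below 0.05 alone 10.7% of tested transcripts were higher. That background depended on scaling, with 4369 transcripts as deposited, 7543 after median centring and 9955 after quantile normalization. The experiments differed in level more than the treatment moved it, with experiment 2 highest and experiment 3 lowest in both groups. With the experiment as a random block the q-value of Tnf was 0.0121. In fits without that block it was 0.113 after Benjamini-Hochberg adjustment and 0.0855 with no filter. With an array left out, again without the block, it lay between 0.00954 and 0.169. It was above 0.05 without vehicle array 1 or 3 or oxLDL array 1 or 2. The random block with no filter gave a q-value of 0.0411.

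Il6 encodes interleukin-6, which drives the acute-phase response. Its values were 6.80, 6.73 and 6.76 with vehicle and 6.69, 6.61 and 6.69 with oxLDL. At most 1.90% of transcripts were dimmer on any array. The oxLDL values were lower in each experiment without overlap, but the difference was -0.10 (log2, 95% interval -0.23 to 0.04, limma q = 0.131). In the dimmest 10% of transcripts, to which Il6 belongs, the median difference was 0.06. Scaling moved the q-value of Il6, to 0.0389 after quantile normalization and 0.232 with arrays centred on their medians.

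The upstream window of Il6, at chr5:30012864-30013113 (plus strand, RefSeq on GRCm38.p6), is shown because it held the most motif matches of the 5 members with a window.
Il6: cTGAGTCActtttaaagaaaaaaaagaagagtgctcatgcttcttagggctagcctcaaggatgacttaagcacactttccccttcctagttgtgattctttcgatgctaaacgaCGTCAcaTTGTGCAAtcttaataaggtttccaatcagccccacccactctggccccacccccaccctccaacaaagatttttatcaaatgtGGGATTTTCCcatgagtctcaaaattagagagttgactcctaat

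The matches in capitals were AP-1 at 249 to 243 bases before the start, a CRE half-site (TGACG on the opposite strand) at 135 to 131, C/EBP at 128 to 121 on the opposite strand, and the κB consensus at 44 to 35, which 17.8% (CRE half-site) and 3.9% (κB) of all windows held. In no other member with a window was the κB consensus matched within these 250 bases. Neither the IRF motif (GAAA, any 2 bases, GAAA), which 2.98% of windows held, nor the TCF/LEF motif (CTTTGA), which 13.8% held, was matched in any of the 5 windows. No 2 matches overlapped. A window for Nos2 was not used here.

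**Figure D3:**
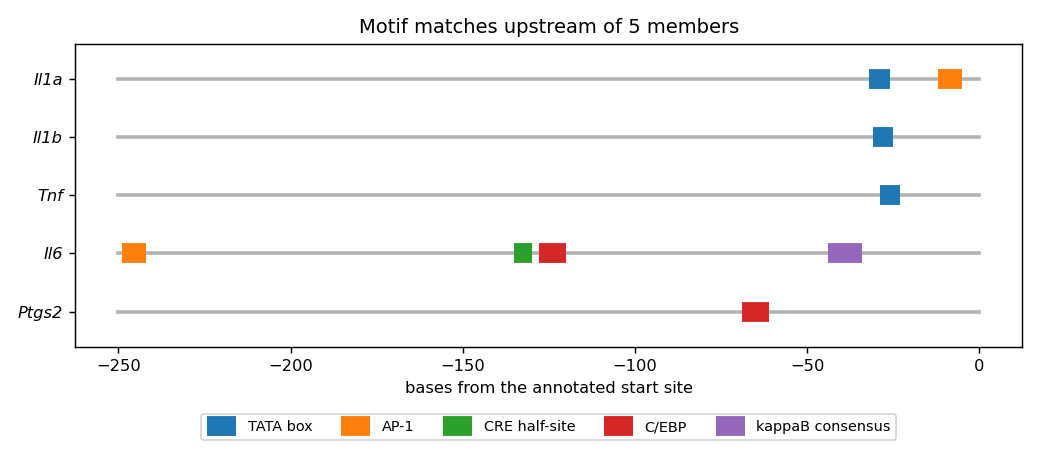
Positions of motif matches in the 250 bases upstream of the annotated start of 5 members (0 is the start, in bases). Coloured blocks are matches on either strand, at true length. TATA boxes lie near the start in Il1a, Il1b and Tnf, and Il6 carries 4 matches.

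Ptgs2, the inducible cyclooxygenase, had values of 8.87, 8.78 and 9.17 with vehicle and 7.98, 8.29 and 8.10 with oxLDL. The groups did not overlap, with means of 8.94 ± 0.20 and 8.12 ± 0.16 (SD, n = 3). On the vehicle arrays 50.7% to 59.1% of transcripts were dimmer, and on the oxLDL arrays 25.2% to 35.6% were. Whether the oxLDL values of Ptgs2 exceeded background was not assessed. The difference was -0.82 (log2, standard error 0.12, q = 0.00247 in the limma fit to all transcripts), a fall of 1.76-fold with a 95% interval of 1.44 to 2.15. In that fit 17.3% of transcripts were lower at q below 0.05, and 2.25% of all transcripts fell as far. The size varied between experiments, at -0.90, -0.49 and -1.07, so that a 2-fold fall was reached in experiment 3 only. Ptgs2 was brightest on vehicle array 3 and dimmest on vehicle array 2, whereas on oxLDL arrays it was brightest on array 2, so its deviations from the group means had opposite signs in the groups of experiments 2 and 3.

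Nos2, the inducible nitric oxide synthase that makes nitric oxide from arginine, had values of 7.89, 7.88 and 7.76 with vehicle and 7.91, 7.91 and 7.86 with oxLDL. The groups overlapped, with means of 7.84 ± 0.07 and 7.89 ± 0.03 (SD, n = 3), and at most 23.7% of transcripts were dimmer on any array. The difference was 0.05 (log2, 95% interval -0.10 to 0.19, limma q = 0.274), about equal to the median of 0.05 among transcripts of its brightness (the tenth from 20% to 30%). A change in the deposited values of the size seen for Ptgs2 lies outside this interval. Whether Nos2 exceeded background was not assessed.

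Over the members, groups did not overlap for 1 higher transcript (Il1a) and 3 lower ones (Il1b, Ptgs2 and Il6), where 16.6% of all transcripts were higher without overlap and 21.4% lower. Direction was the same in 3 of 3 experiments for each of the 6, including the 3 tested members, though for Nos2 by as little as 0.02 (log2). Most tested transcripts did the same, 8281 higher and 18948 lower of 40845. That share is a background for the 3 tested members only, since it was not taken over all transcripts. The level of an experiment was shared for Il1a and Tnf, both highest in experiment 2 and lowest in experiment 3 whether or not oxLDL was given. For Il1b the vehicle value was also highest in experiment 2, but on the oxLDL arrays the experiments were within 0.04 (SD) of their mean.

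Transcripts with the most similar pattern over the 6 arrays were found by Pearson's r among the other 40842 tested transcripts. For Il1b this was ENSMUST00000159720_at (r = 0.9996), at 10.38 with vehicle and 8.70 with oxLDL, and 115 transcripts had an r above 0.99. For Ptgs2 it was ENSMUST00000135209_at (r = 0.999, difference -0.44), with 258 above 0.99. For Il1a it was ENSMUST00000127274_at (r = 0.998, difference 0.53, 30 above 0.99), and for Tnf ENSMUST00000167924_at (r = 0.999, difference 0.39, 7 above 0.99). The means of the Tnf match were 9.71 with vehicle and 10.10 with oxLDL, close to those of Tnf. On all 6 arrays 2 transcripts lay within 0.1 of Tnf. Whether a match is another transcript of the same gene is not known, because the identifiers were not paired with genes. The matches named for Il1b, Ptgs2, Il1a and Tnf had limma q-values below 0.05, but of them only the match of Il1b changed 2-fold. They were picked for likeness to a member over these same arrays, so their q-values are no separate evidence. The points of each correlation are the same 6 arrays, and nothing is said of shared function.

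**Figure D4:**
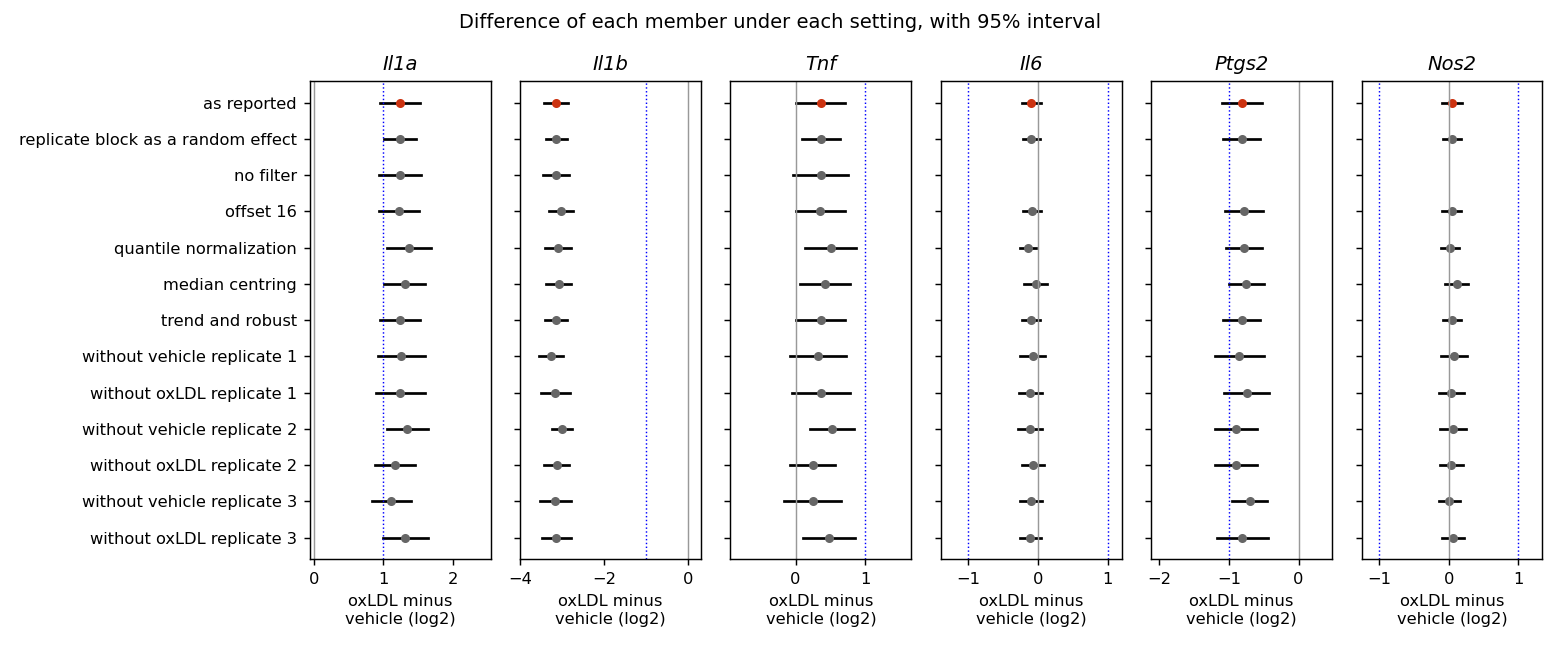
Difference between oxLDL and vehicle (log2) of each member as reported (red) and under other settings (grey), with 95% intervals from limma. The solid line marks 0 and dotted lines 2-fold changes, and the axes differ in range. Il1b stays near -3 and Il1a above 1, while the Tnf interval includes 0 under some settings.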

How the data were processed

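Total RNA of the wells was measured on Affymetrix exon arrays. Per the study's methods and labels, the authors applied quantile normalization to the probes, with no background adjustment, and used PLIER to summarize them per Ensembl transcript. The deposited values were taken as log2 from their range, since the base and any offset before the logarithm are not given in the sources used here. Precision is limited by 3 arrays per group.

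The members and lists were chosen with earlier results of these data known. Gene symbols of the 6 transcripts came with the list of members, and 0 of 81690 identifiers were found in the reference gene table, so other transcripts of these genes, the NF-κB pathway list and the cell type markers were not analysed here. Transcripts with a mean above 8.74 were fitted with limma 3.58.1 in R 4.3.3 (no covariate, prior proportion 0.1, two-sided, Storey q-values), and members below it in a fit to all transcripts. Calls needed q below 0.05 and a 2-fold change. The fit was tested on simulated data. All 6 members were to be named, and for each the transcript with the largest Pearson r, at most 2 rising and 2 falling. Motifs were searched on both strands of 250 bases upstream. Figures used matplotlib 3.10.9.

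The same-numbered wells came from 1 pool of cells. Deviations from the group means correlated at 0.51, 0.67 and 0.58 between arrays of the same number, so the numbers were taken to pair the arrays. The other correlations were -0.53 to -0.04. Centring within groups pushes them below 0 when the same-number ones are positive, so they add no separate support. The alternatives were the pair as a fixed or random block, Benjamini-Hochberg adjustment, other filters, an offset of 16, quantile normalization, median centring, trend with robust estimation, no fold threshold and each array left out. The fixed block without a filter was added after seeing the data.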

Additional observations from a re-analysis of the deposited data

How the results depend on the processing

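Il1b and Il1a were called wherever they were tested, with differences from -3.27 to -3.00 for Il1b and from 1.12 to 1.37 for Il1a (log2). Il1b was not tested among the brightest 25% of transcripts, where 0 members and 642 transcripts were called lower. Without the fold threshold 2 members (Il1a and Tnf) were higher and 2 (Il1b and Ptgs2) lower. Of the tested transcripts 4369 were then higher and 12587 lower, and in the fit to all transcripts, from which the q of Ptgs2 comes, 6225 and 14107. After quantile normalization the split of the tested transcripts turned, to 9955 higher and 8842 lower. With an array left out the differences were 0.25 to 0.52 for Tnf, -0.90 to -0.70 for Ptgs2, -0.11 to -0.07 for Il6 and 0.01 to 0.07 for Nos2, and no member changed direction under any alternative. Under other scalings the difference was -0.15 (quantile normalization) and -0.03 (median centring) for Il6, and 0.01 (quantile normalization) and 0.11 (median centring) for Nos2. The replicate block left the differences as they were (Tnf 0.36, Il1b -3.14, Il1a 1.24, Ptgs2 -0.82) and changed no call at both thresholds. As a fixed term it gave all tested transcripts 1 common variance, so its q-values are not used, and without a filter, added after seeing the data, it gave Tnf a q of 0.00473. Over its alternatives the q of Tnf ran from 0.00473 to 0.169 and that of Ptgs2 from 0.000989 to 0.0144, leaving out the filter per group, which Ptgs2 passed only through its vehicle mean. The change in Il1b minus Il1a stayed between -4.52 and -4.26. Signal over background was not assessed, which limits Il6, Nos2 and the oxLDL values of Il1b and Ptgs2. The alternative for listed genes was not run, because the identifiers were not paired with genes.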
